A study of Mus musculus with 11 samples.

Results

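The 33 genes described here encode the components of the basement membrane and of the hemidesmosome, the junction that anchors basal keratinocytes to it. They were given as a list of symbols, and all 33 were found among the 55536 Ensembl mouse genes counted in 11 RNA-sequencing libraries of sorted dorsal skin cells. All 33 also passed the filter on low counts that left 20307 genes for testing. By their textbook roles, 12 members were placed in an epidermal and hemidesmosome class, 11 in a vascular class, and 10 in neither. Several members of the vascular class, such as the collagen IV chains alpha 1 and alpha 2, also occur in basement membranes outside vessels.

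All libraries came from male CD4Cre R26-tdT mice on a C57Bl6/N background, in which Cre driven by the CD4 promoter switches on the red reporter tdTomato (tdT) in cells that have used this promoter and in their descendants. Per the labels, thermolysin was used to isolate epidermal cells, FACS took those in a CD49f+CD34+ gate, and every library pooled 2 mice. The groups were Sca-1+ tdT+ (3 libraries), Sca-1+ tdT- (2), Sca-1neg tdT+ (3) and Sca-1neg tdT- (3). Replicate 1 of each group came from mice aged 29 weeks and the others from mice aged 32 weeks. All groups carried both alleles, so tdT- cells are reporter-negative cells of the same strain and not a separate genotype.

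A basement membrane is a thin sheet of extracellular matrix made of a laminin network and a collagen IV network, which nidogens and the proteoglycan perlecan link. Laminins are trimers of an alpha, a beta and a gamma chain. Basal keratinocytes of the epidermis make an epidermal laminin that contains Lama3 and Lamb3 and attach to it through hemidesmosomes, while the basement membrane of blood vessels holds laminin-411, whose alpha chain is Lama4. In hair follicles the bulge, where stem cells reside, has a basement membrane of its own composition.

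Total gene counts ran from 17409131 to 46542177 per library. The tdT transcript, read from the one non-Ensembl entry of the files and not scaled by TMM, stood at 133 to 307 CPM in 5 of the 6 libraries labelled tdT+ and at 2.54 to 4.89 CPM in the tdT- libraries. It stood at 2.05 CPM, against the label, in 1 library, which is called the library labelled Sca-1neg tdT+ replicate 2 throughout. This library and 2 others, Sca-1neg tdT+ replicate 1 and Sca-1neg tdT- replicate 2, also held liver transcripts, with 15021 to 31399 CPM over a hepatocyte list, against 9.44 to 110.0 CPM in the other 8. Transcripts of the sort markers Itga6 (CD49f, which binds laminin) and Ly6a (Sca-1) were higher in all Sca-1+ libraries than in any Sca-1neg library. Cd34 was at 22.3 to 35.7 CPM in Sca-1+ tdT+, 319.6 and 383 CPM in Sca-1+ tdT-, and 468 to 1130.1 CPM in Sca-1neg libraries, so its transcript was low in a group sorted for the CD34 protein. Values below are CPM, gene counts relative to the library total after TMM scaling, and levels are compared between genes only as CPM per kilobase of exon. A gene is said to have risen or fallen only where the edgeR quasi-likelihood test, fitted to all 11 libraries, gave a Benjamini-Hochberg adjusted p below 0.05 over the 20307 genes, and "passed" refers to this test unless another is named.

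Within the Sca-1+ fraction, vascular members were lower in tdT+ than in tdT- libraries, while no epidermal or hemidesmosome member passed the test. Of the 33 members, 7 fell in Sca-1+ tdT+ relative to Sca-1+ tdT- and none rose. This is 21.2% of the members, where 2.34% of all genes tested fell and 0.394% rose. The 7 were perlecan (Hspg2), the laminin chains Lama4 and Lamb2, the collagens Col4a1, Col4a2 and Col18a1, and the crosslinking enzyme peroxidasin (Pxdn). By class, 6 of 11 vascular, 1 of 10 other and 0 of 12 epidermal members fell, and the median log2 fold changes were -2.88, -1.22 and 0.27, beside 0.04 over all genes. DESeq2 called 12 members in this comparison, all lower, among them the epidermal member Cd151. Of all 20307 genes it called 1101 lower and 348 higher, more than edgeR did. In 16 of the 33 members every Sca-1+ tdT+ library lay below both Sca-1+ tdT- libraries, which was so for 17.2% of all genes, and in 0 members every one lay above, against 15.8%. In bulk counts, fewer cells of a type and less RNA per cell cannot be told apart.

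**Figure D1:**
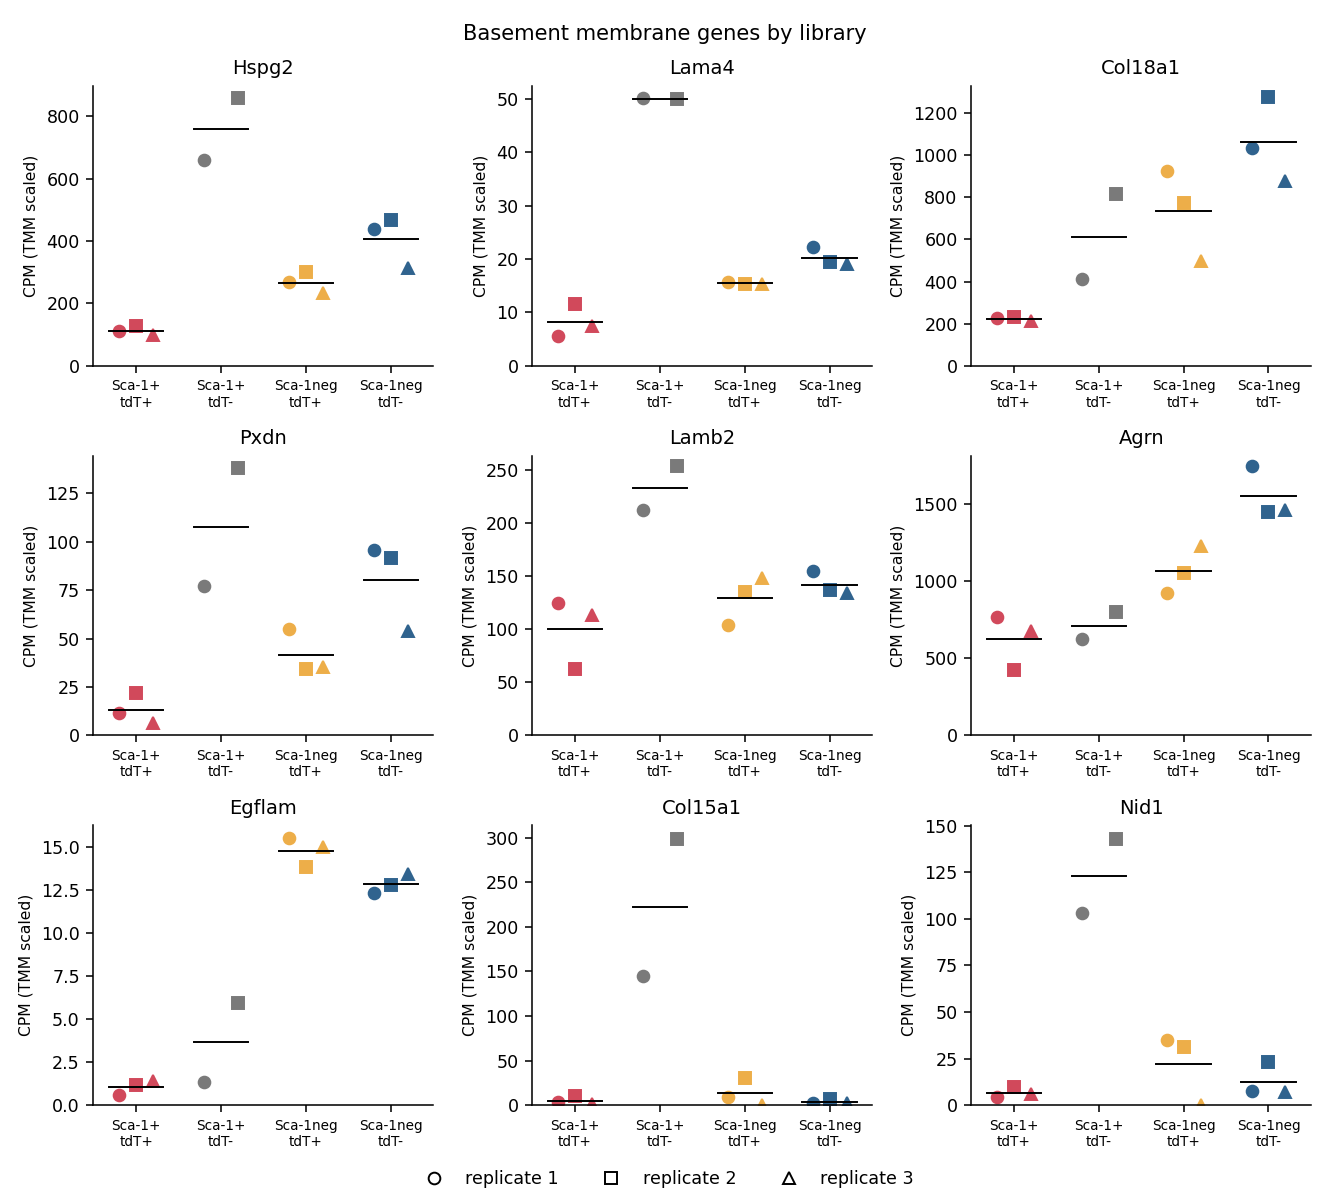
CPM (TMM-scaled, each axis starting at 0) of 9 members in the 11 libraries. Points are libraries, marker shapes are replicates and horizontal lines are group means, in the order Sca-1+ tdT+, Sca-1+ tdT-, Sca-1neg tdT+, Sca-1neg tdT-. Hspg2 lies at 99.5 to 126 CPM in Sca-1+ tdT+, against 659 and 859 CPM in Sca-1+ tdT-, with the Sca-1neg groups between them.

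Among the laminin alpha chains, Lama4 (chr10:38965515-39110188, GRCm38, plus strand), the alpha chain of vessel laminins, had 5.60, 11.6 and 7.38 CPM in Sca-1+ tdT+, against 50.2 and 49.9 CPM in Sca-1+ tdT-. It had 15.7, 15.3 and 15.3 CPM in Sca-1neg tdT+ and 22.2, 19.5 and 19.1 CPM in Sca-1neg tdT-. The 4 groups did not overlap, with Sca-1+ tdT+ lowest and Sca-1+ tdT- highest. The log2 fold change of Sca-1+ tdT+ over Sca-1+ tdT- was -2.61 ± 0.27 (SE, adjusted p = 0.000655, edgeR quasi-likelihood test).

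Lama3, the alpha chain of the epidermal laminin, had 438, 305 and 345 CPM in Sca-1+ tdT+, 376 and 314 CPM in Sca-1+ tdT-, 228, 290.2 and 339 CPM in Sca-1neg tdT+, and 379.6, 294 and 368 CPM in Sca-1neg tdT-. The groups overlapped. Its log2 fold change of Sca-1+ tdT+ over Sca-1+ tdT- was 0.07 ± 0.22 (SE, adjusted p = 0.948, edgeR quasi-likelihood test). Set against each other per kilobase of exon, the ratio of the Lama4 level to the Lama3 level was 0.0114, 0.0338 and 0.0191 in Sca-1+ tdT+, against 0.119 and 0.141 in Sca-1+ tdT-. It was 0.0615, 0.0470 and 0.0402 in Sca-1neg tdT+ and 0.0520, 0.0591 and 0.0463 in Sca-1neg tdT-. The epidermal chain was the more abundant in all 11 libraries, and the ratio was lowest in Sca-1+ tdT+ and highest in Sca-1+ tdT-.

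Lama5, an alpha chain shared by epidermal and vessel basement membranes, stood at 217 to 636 CPM over the 11 libraries and passed no test. Lama1 and Lama2, alpha chains best known from early embryos and from muscle and nerve, did not exceed 22.7 and 16.3 CPM in the 11 libraries, and neither passed a test. Lama2 passed in Sca-1+ tdT+ against Sca-1+ tdT- without Sca-1neg tdT+ replicate 3 (-2.80, adjusted p = 0.0334, edgeR quasi-likelihood test).

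Of the beta chains, Lamb2 (chr9:108479736-108490530, plus strand), found in laminins of muscle, kidney and vessels, had 125, 62.2 and 113 CPM in Sca-1+ tdT+, against 212 and 254 CPM in Sca-1+ tdT-, without overlap. It had 104, 135 and 148 CPM in Sca-1neg tdT+ and 155, 137 and 134 CPM in Sca-1neg tdT-, so that both Sca-1+ tdT- libraries exceeded the other 9. The log2 fold change of Sca-1+ tdT+ over Sca-1+ tdT- was -1.22 ± 0.26 (SE, adjusted p = 0.0324, edgeR quasi-likelihood test). Lamb1, the beta chain of laminin-411, had 14.4, 13.7 and 3.35 CPM in Sca-1+ tdT+, against 64.3 and 90.2 CPM in Sca-1+ tdT-. Its replicates spread widely in Sca-1neg tdT+, at 62.4, 16.4 and 9.86 CPM, and the log2 fold change of Sca-1+ tdT+ over Sca-1+ tdT- of -2.88 ± 0.86 did not pass (SE, adjusted p = 0.161, edgeR quasi-likelihood test). Lamb3, the epidermal beta chain, averaged 522 ± 96.9 CPM in Sca-1+ tdT+ and 451 ± 21.8 CPM in Sca-1+ tdT- (SD, n = 3 and 2), and its groups overlapped. The ratio of the Lamb1 to the Lamb3 level per kilobase was 0.00402 to 0.0221 in Sca-1+ tdT+, against 0.0985 and 0.129 in Sca-1+ tdT-. Lamc1, the common gamma chain, passed no test, with 66.7 to 155 CPM in Sca-1+ tdT+, against 154 and 230.2 CPM in Sca-1+ tdT-. Lamc3, a rarer gamma chain, had at most 12.8 CPM.

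Collagen IV chains are encoded by head-to-head gene pairs whose transcription starts lie close together on opposite strands. In GENCODE M21 the Col4a1 gene (chr8:11198423-11312826) and the Col4a2 gene (chr8:11312805-11449287) overlap by 22 bases at their starts. The Col4a4 and Col4a3 genes (chr1:82448423-82586849 and chr1:82586921-82722059) are separated by 71 bases, and the Col4a6 and Col4a5 genes (chrX:141165403-141474076 and chrX:141475385-141689234) by 1308 bases. The untranscribed bases beside these starts are shown for 2 of the pairs because the levels of the chains of a pair are compared with each other. Col4a4 and Col4a3 share a single stretch, while Col4a6 and Col4a5 each have a window of their own. They are taken from the RefSeq promoter table of GRCm38.p6 and written 5′ to 3′ on the strand of the named gene. Capitals mark a CCAAT box (CCAAT) or a GC box (GGGCGG), searched on both strands, so that a GC box on the other strand reads CCGCCC.
Col4a4 to Col4a3, chr1:82586850-82586920, minus strand: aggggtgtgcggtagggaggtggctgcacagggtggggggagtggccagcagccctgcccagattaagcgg
Col4a6, chrX:141474077-141474326, minus strand: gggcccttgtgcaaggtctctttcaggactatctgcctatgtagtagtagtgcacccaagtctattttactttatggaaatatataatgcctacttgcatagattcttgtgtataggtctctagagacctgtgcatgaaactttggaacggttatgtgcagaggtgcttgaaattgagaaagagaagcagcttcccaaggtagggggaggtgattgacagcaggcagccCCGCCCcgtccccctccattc
Col4a5, chrX:141475169-141475384, plus strand: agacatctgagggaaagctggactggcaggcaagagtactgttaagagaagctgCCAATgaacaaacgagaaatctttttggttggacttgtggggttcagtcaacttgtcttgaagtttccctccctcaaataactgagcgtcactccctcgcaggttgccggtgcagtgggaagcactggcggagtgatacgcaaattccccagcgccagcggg
The Col4a6 window held 1 GC box, the Col4a5 window 1 CCAAT box, and the 71 bases between Col4a4 and Col4a3 held neither. In the 250 bases upstream of all 32851 promoters of the table, 33.8% held a CCAAT box and 32.7% a GC box. The Col4a6 window has the full 250 bases of that background, while the other windows are shorter. In the full 250 bases upstream of Col4a5 a GC box was found as well, which is not in the shorter window shown.

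Col4a1 and Col4a2, the chains found in nearly all basement membranes, were lowest in Sca-1+ tdT+ in all 3 replicates. Col4a2 had 14.9, 12.8 and 28.2 CPM in Sca-1+ tdT+, against 164 and 323 CPM in Sca-1+ tdT-, with 100.4, 86.3 and 85.4 CPM in Sca-1neg tdT+ and 140.5, 203 and 115 CPM in Sca-1neg tdT-. Col4a1 had 16.3, 24.6 and 23.9 CPM in Sca-1+ tdT+, against 187 and 407 CPM in Sca-1+ tdT-, with 133, 137 and 58.7 CPM in Sca-1neg tdT+ and 126, 242 and 113 CPM in Sca-1neg tdT-. For neither chain did the Sca-1+ tdT+ libraries overlap any other group. The log2 fold changes of Sca-1+ tdT+ over Sca-1+ tdT- were -3.71 ± 0.39 for Col4a2 and -3.78 ± 0.50 for Col4a1 (SE, adjusted p = 0.00102 and 0.00457, edgeR quasi-likelihood test). Per kilobase of exon, the Col4a2 level divided by the Col4a1 level stayed between 0.589 and 1.64 over the 11 libraries. The strand setting of the counting is not given in the sources used here, and reads within the 22 shared bases cannot be assigned to either gene without it.

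The epidermal chains Col4a5 and Col4a6 behaved otherwise. Between Sca-1+ tdT+ and Sca-1+ tdT- neither passed the test, and their libraries overlapped. Col4a5 had 63.3 to 96.8 CPM in Sca-1+ tdT+, against 54.8 and 64.5 CPM in Sca-1+ tdT-, and Col4a6 had 76.0 to 172 CPM in Sca-1+ tdT+, against 62.8 and 89.9 CPM in Sca-1+ tdT-. Per kilobase, Col4a1 stood at 0.152, 0.350 and 0.329 times the level of Col4a5 in Sca-1+ tdT+, but at 2.61 and 6.69 times its level in Sca-1+ tdT-. In Sca-1+ tdT+ the epidermal chain was thus the more abundant, and in both Sca-1+ tdT- libraries Col4a1 was. In the Sca-1neg libraries this ratio was 1.97, 2.25 and 0.698 in tdT+ and 1.33, 3.13 and 1.38 in tdT-.

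**Figure D2:**
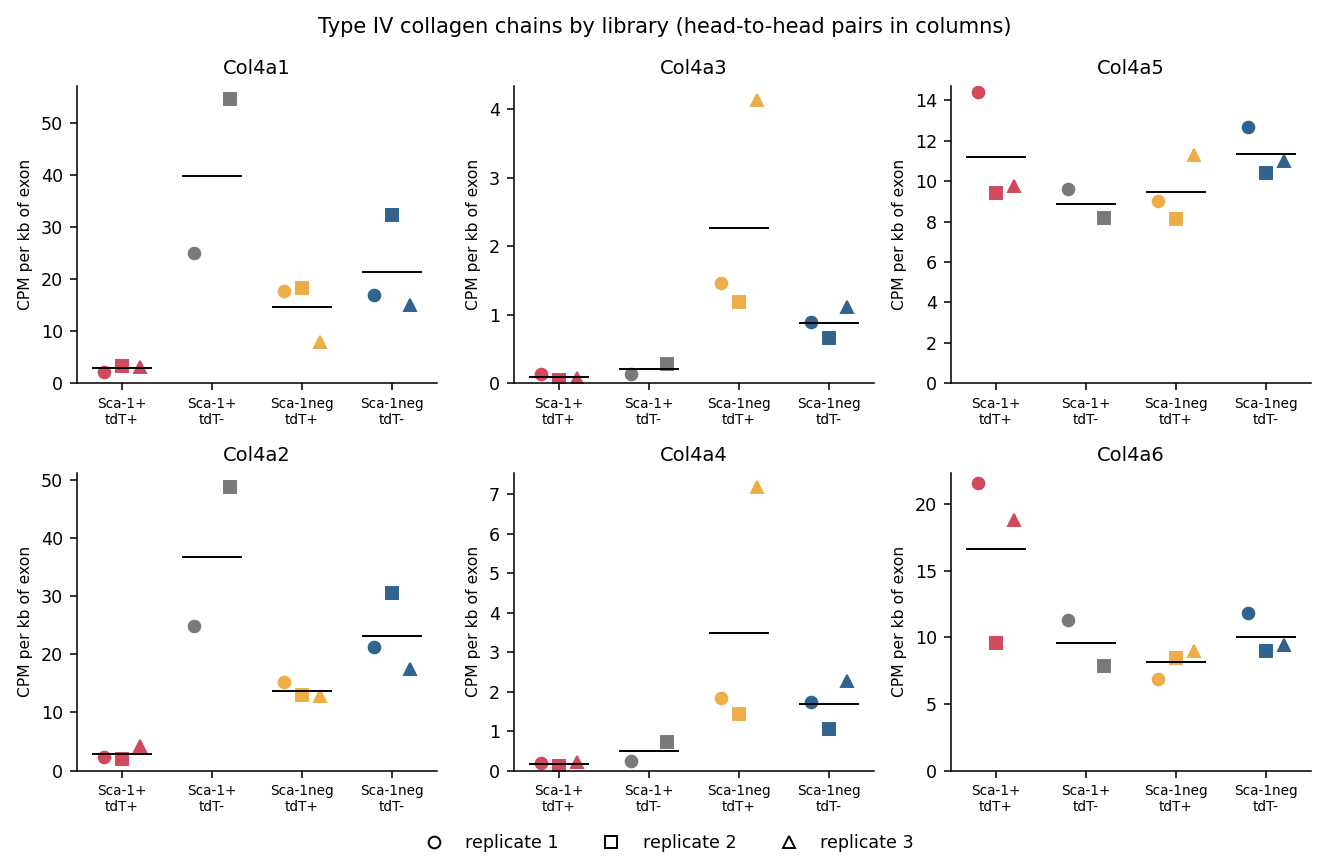
Levels of the 6 collagen IV chains as CPM per kilobase of exon in the 11 libraries, with head-to-head gene pairs sharing a column. Points are libraries, marker shapes are replicates and lines are group means. Col4a1 and Col4a2 are lowest in Sca-1+ tdT+, Col4a3 and Col4a4 are lower in both Sca-1+ groups than in any Sca-1neg library, and Col4a5 varies least.

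Of the collagens outside the collagen IV network, Col18a1 (chr10:77052178-77166548, minus strand), which carries heparan sulfate and is the source of endostatin, had 229, 230.5 and 211 CPM in Sca-1+ tdT+, against 409.7 and 815 CPM in Sca-1+ tdT-, without overlap. The log2 fold change was -1.46 ± 0.31 (SE, adjusted p = 0.0312, edgeR quasi-likelihood test). Col15a1, a related collagen of vessel and muscle basement membranes, had 3.33, 10.3 and 0.929 CPM in Sca-1+ tdT+, against 145 and 299 CPM in Sca-1+ tdT-. The groups did not overlap and the log2 fold change was -5.53 ± 1.58, but the adjusted p was 0.150 by the edgeR quasi-likelihood test. In Sca-1neg tdT+ its 3 libraries spread from 0.386 to 30.4 CPM. Without Sca-1neg tdT+ replicate 3, Col15a1 passed in this comparison with the same fold change of -5.53 (adjusted p = 0.0458, edgeR quasi-likelihood test).

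Perlecan (Hspg2, chr4:137468769-137570630, plus strand), a large heparan sulfate proteoglycan of basement membranes, was the member with the lowest p. It had 109.9, 126 and 99.5 CPM in Sca-1+ tdT+, against 659 and 859 CPM in Sca-1+ tdT-, with 267, 299 and 232 CPM in Sca-1neg tdT+ and 438, 466 and 312 CPM in Sca-1neg tdT-. The 4 groups did not overlap. Between Sca-1+ tdT+ and Sca-1+ tdT- the log2 fold change was -2.76 ± 0.21 (SE, adjusted p = 0.000225, edgeR quasi-likelihood test). Its untranscribed upstream bases are shown because this was the only fall between Sca-1+ tdT+ and Sca-1+ tdT- called under all 19 alternatives. They held 5 GC boxes (capitals) and no CCAAT box. Over the 250 bases upstream of all RefSeq promoters, 32.7% held a GC box, and the number in each was not counted. Any link of these boxes to the fall was not tested.
Hspg2, chr4:137468553-137468768, plus strand, GRCm38.p6: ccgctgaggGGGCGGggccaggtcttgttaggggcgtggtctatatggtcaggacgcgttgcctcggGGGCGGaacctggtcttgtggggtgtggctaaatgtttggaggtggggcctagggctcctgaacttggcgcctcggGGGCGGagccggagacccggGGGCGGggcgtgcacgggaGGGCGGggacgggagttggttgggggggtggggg

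Peroxidasin (Pxdn, chr12:29937608-30017658, plus strand) forms the sulfilimine crosslinks of collagen IV. It had 11.4, 21.7 and 6.55 CPM in Sca-1+ tdT+, against 77.2 and 138 CPM in Sca-1+ tdT-, without overlap, and the log2 fold change was -3.03 ± 0.49 (SE, adjusted p = 0.0110, edgeR quasi-likelihood test). Nidogen 1 (Nid1), which bridges laminin and collagen IV, had 4.18, 9.60 and 6.09 CPM in Sca-1+ tdT+, against 103 and 143 CPM in Sca-1+ tdT-. The Nid1 log2 fold change of -4.22 ± 1.37 did not pass (SE, adjusted p = 0.199, edgeR quasi-likelihood test), and it passed without Sca-1neg tdT+ replicate 3 (-4.22, adjusted p = 0.00641, same test). Nid2, its homologue, had 0.929 to 2.48 CPM in Sca-1+ tdT+, against 7.63 and 8.92 CPM in Sca-1+ tdT-, and did not pass.

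No hemidesmosome gene passed the test between Sca-1+ tdT+ and Sca-1+ tdT-. Col17a1, the transmembrane collagen of the hemidesmosome, was the most abundant member per kilobase of exon, with a mean of 937 CPM per kilobase over the 11 libraries, where the next member, Agrn, had 109. It had 7600.0, 4048 and 6029 CPM in Sca-1+ tdT+, against 4566 and 4257 CPM in Sca-1+ tdT-, and the groups overlapped. The log2 fold change was 0.42 ± 0.28 (SE, adjusted p = 0.579, edgeR quasi-likelihood test). Of the plakin linkers to keratin filaments, dystonin (Dst) was at 1238 to 2074 CPM in Sca-1+ tdT+, against 1246 and 1359 CPM in Sca-1+ tdT-. Plectin (Plec) was at 995 to 1716 CPM in Sca-1+ tdT+, against 1269 and 1562 CPM in Sca-1+ tdT-. Both are genes with tissue-specific isoforms, which gene counts do not separate. Col7a1, the collagen of anchoring fibrils, stood at 321 to 696 CPM in Sca-1+ tdT+, against 378 and 389 CPM in Sca-1+ tdT-. The tetraspanin Cd151, a partner of laminin-binding integrins, had 119.9, 141 and 133 CPM in Sca-1+ tdT+, against 173 and 206 CPM in Sca-1+ tdT-. These groups did not overlap, but the log2 fold change of -0.52 ± 0.17 did not pass (SE, adjusted p = 0.158, edgeR quasi-likelihood test). DESeq2 called it, with a log2 fold change of -0.55 (adjusted p = 0.0351), and also called it in Sca-1+ tdT+ against Sca-1neg tdT+ (-0.42, adjusted p = 0.0428). Of the Fraser complex, which links the epidermis to the dermis in embryos, Frem2 was at 42.7 to 121 CPM over the 11 libraries, Fras1 at 1.08 to 20.5 CPM and Frem1 at no more than 3.81 CPM, and none passed the edgeR test. In Sca-1+ tdT+ against Sca-1neg tdT+, Fras1 was called by DESeq2 (-1.75, adjusted p = 0.0323), and by edgeR with replicate number as a block (-2.12, adjusted p = 0.0377) or without Sca-1+ tdT+ replicate 2 (-2.82, adjusted p = 0.0161).

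Summed per kilobase, the 11 vascular members divided by the 12 epidermal members gave 0.0373, 0.0658 and 0.0471 in Sca-1+ tdT+, against 0.212 and 0.382 in Sca-1+ tdT-. In Sca-1neg libraries this quotient was 0.223, 0.159 and 0.0850 in tdT+ and 0.152, 0.247 and 0.132 in tdT-. All 3 Sca-1+ tdT+ libraries lay below the other 8. The genes did not weigh equally in these sums. In every library the largest part of the epidermal sum was Col17a1, and that of the vascular sum was Col18a1. For Sca-1+ tdT+ replicate 1, Col17a1 gave 1264 of 1673 CPM per kilobase, while Col18a1 gave 32.6 of 62.3. For Sca-1+ tdT- replicate 1, these parts were 759.7 of 1089.8 (Col17a1) and 58.4 of 231 (Col18a1). By group, Col18a1 was highest in Sca-1neg tdT-. The numerator was 62.3 to 66.0 CPM per kilobase in Sca-1+ tdT+, against 231 and 404 in Sca-1+ tdT-. The denominator was 956 to 1673 CPM per kilobase in Sca-1+ tdT+, against 1057 and 1089.8 in Sca-1+ tdT-, so the epidermal sums overlapped and the vascular sums did not.

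Endothelial markers moved with the vascular members in the Sca-1+ fraction. Over a list of 20 endothelial genes the summed level was 103, 189 and 224 CPM in Sca-1+ tdT+, against 6962 and 7556 CPM in Sca-1+ tdT-. All 20 had a negative log2 fold change, with a median of -5.20, and 1 of them fell. Pecam1, the defining gene of the list, was at 13.4 to 32.9 CPM in Sca-1+ tdT+, against 688 and 728 CPM in Sca-1+ tdT-. Bulge markers moved in the same direction, with a summed level of 267 to 388 CPM in Sca-1+ tdT+, against 905 and 1548 CPM in Sca-1+ tdT-, and 4 of 6 fell. The bulge list holds Lhx2, Sox9, Tcf7l1, Lgr5, Nfatc1 and Cd34, so its sums and counts include a sort marker whose levels are given above. T cell markers were at 241 to 756 CPM in Sca-1+ tdT+, against 54.5 and 58.9 CPM in Sca-1+ tdT-. Fibroblast markers summed to 366 to 1446 CPM in Sca-1+ tdT+, against 1694 and 2728 CPM in Sca-1+ tdT-, and of these the collagen Col1a1 had 3.15 to 71.2 CPM in Sca-1+ tdT+, against 51.4 and 131 CPM in Sca-1+ tdT-. Pericyte and smooth muscle markers summed to 146 to 195 CPM in Sca-1+ tdT+, against 211 and 316 CPM in Sca-1+ tdT-. Of these 10 genes, however, 5 had a negative and 5 a positive log2 fold change, with a median of -0.00, and 1 fell. Basal keratinocyte markers summed to 34302 to 38699 CPM in Sca-1+ tdT+, against 24907 and 28096 CPM in Sca-1+ tdT-. The part of each cell type in the falls was not tested.

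Levels of the 11 vascular members can be set beside the endothelial sum in the Sca-1neg libraries too. In Sca-1neg tdT+ replicate 3 the 20 endothelial genes summed to 16.6 CPM, the lowest of all 11 libraries, with Pecam1 at 1.05 CPM. This library had 85.4 CPM of Col4a2, 58.7 CPM of Col4a1, 232 CPM of Hspg2, 15.3 CPM of Lama4, 497 CPM of Col18a1 and 35.5 CPM of Pxdn, each above every Sca-1+ tdT+ library. Its Lamb1 level of 9.86 CPM and its Lamc1 level lay within the range of the Sca-1+ tdT+ libraries. Its Col15a1, Nid1 and Nid2 levels of 0.386, 0.331 and 0.882 CPM were the lowest of the 11. The library labelled Sca-1neg tdT+ replicate 2 had an endothelial sum of 1649 CPM, with 30.4 CPM of Col15a1 and 31.4 CPM of Nid1. Its Hspg2 and Lama4 levels were 299 and 15.3 CPM. It is among the 3 libraries holding liver transcripts, all Sca-1neg, with a hepatocyte sum of 15021 CPM. Of the other 2, the tdT+ one (replicate 1) had 34.9 CPM of Nid1 at an endothelial sum of 229 CPM. For the tdT- one (replicate 2) these values were 23.3 and 275 CPM. Sca-1neg libraries without liver transcripts had 0.331 to 7.48 CPM of Nid1 and endothelial sums of 16.6 to 90.8 CPM. The libraries described here were picked out after their values were seen. The part of endothelial cells or of liver material in any of these levels was not tested.

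**Figure D3:**
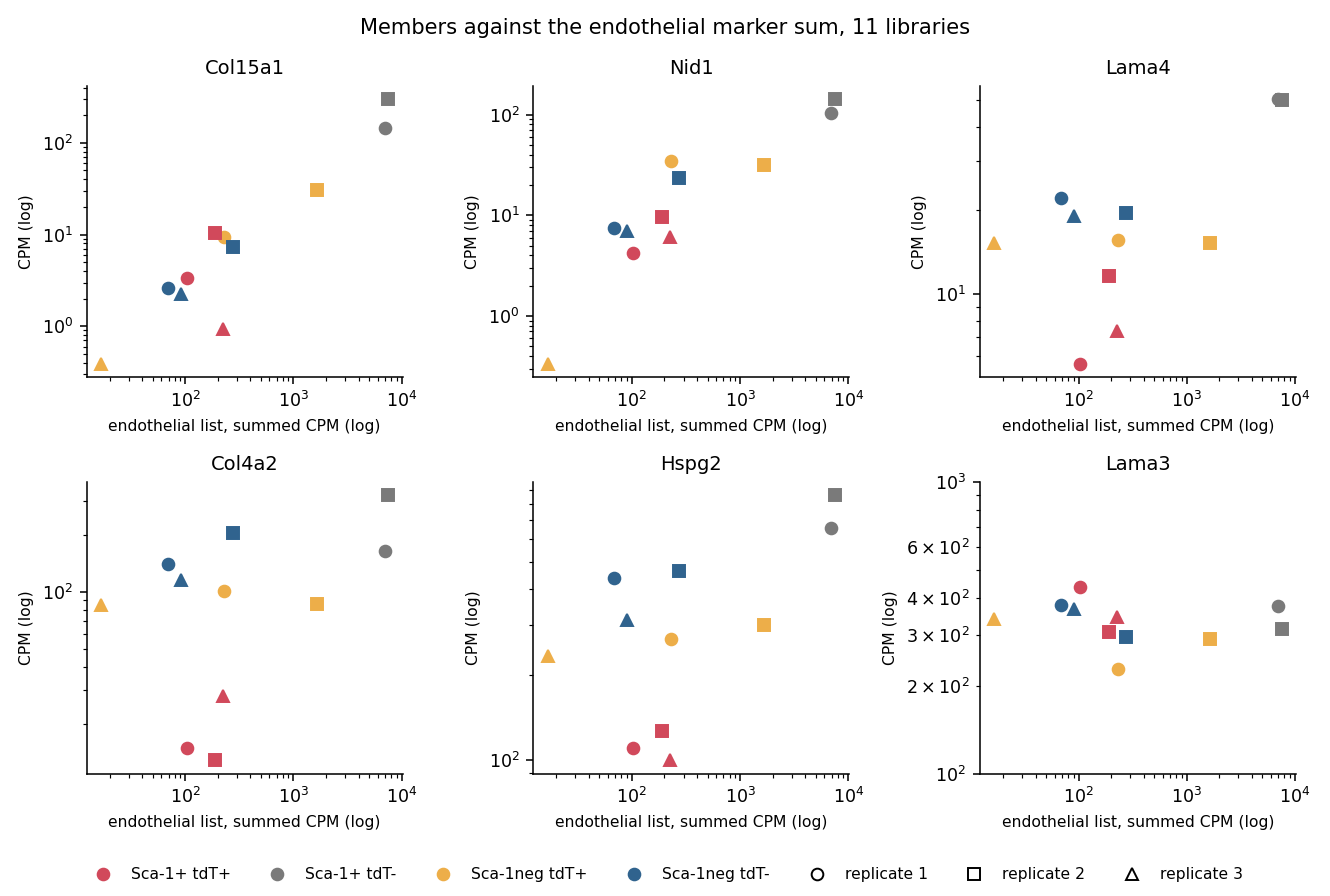
CPM of 6 members (y, log scale) against the summed CPM of 20 endothelial marker genes (x, log scale), with 1 point for each of the 11 libraries. Col15a1 and Nid1 are lowest in the library with the lowest endothelial sum of 16.6 CPM, and Lama4, Col4a2 and Hspg2 are lowest in Sca-1+ tdT+ libraries and Lama3 is nearly level.

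In tdT+ cells, 10 of 33 members fell in Sca-1+ relative to Sca-1neg and 1 rose, which is 30.3% and 3.03% of the members. Of all genes tested, 6.73% fell and 5.94% rose in this comparison. The falls were 6 of 11 vascular members (Hspg2, Lama4, Col4a1, Col4a2, Col18a1 and Pxdn) and 4 of 10 others (Col4a3, Col4a4, Egflam and Agrn), and the rise was Col4a6, 1 of 12 epidermal members. Class medians of the log2 fold change were -1.49 for vascular, -0.64 for other and 0.15 for epidermal members, beside -0.07 over all genes. This comparison shares the Sca-1+ tdT+ libraries with the comparison above, so falls in both are not independent.

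Col4a3 and Col4a4, the chains known from the glomerular basement membrane of the kidney, were lower in every Sca-1+ library than in any Sca-1neg library. Col4a3 had 1.31, 0.454 and 0.826 CPM in Sca-1+ tdT+, against 14.7, 11.8 and 41.3 CPM in Sca-1neg tdT+. Col4a4 had 2.00, 1.25 and 2.22 CPM in Sca-1+ tdT+, against 19.5, 15.2 and 76.2 CPM in Sca-1neg tdT+. Neither pair of groups overlapped, and replicate 3 of Sca-1neg tdT+ was the highest library for both genes. The log2 fold changes of Sca-1+ tdT+ over Sca-1neg tdT+ were -4.68 ± 0.62 for Col4a3 and -4.33 ± 0.73 for Col4a4 (SE, adjusted p = 0.000934 and 0.00507, edgeR quasi-likelihood test). Col4a3 had 1.30 and 2.81 CPM in Sca-1+ tdT-, against 6.53 to 11.1 CPM in Sca-1neg tdT-, and Col4a4 had 2.56 and 7.79 CPM in Sca-1+ tdT-, against 11.3 to 24.2 CPM in Sca-1neg tdT-. Between these tdT- groups the Col4a3 log2 fold change of -2.11 ± 0.64 did not pass (SE, adjusted p = 0.0847, edgeR quasi-likelihood test). The Col4a3 level per kilobase was 0.384 to 0.829 times that of Col4a4 in every library.

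Pikachurin (Egflam), a dystroglycan ligand known from the retina, had 0.613, 1.14 and 1.39 CPM in Sca-1+ tdT+, against 13.8 to 15.5 CPM in the 3 Sca-1neg tdT+ libraries. The groups lay far apart and the Sca-1neg tdT+ replicates close together, and the log2 fold change was -3.82 ± 0.53 (SE, adjusted p = 0.00117, edgeR quasi-likelihood test). In tdT- it had 1.36 and 5.95 CPM in Sca-1+ and 12.3, 12.8 and 13.4 CPM in Sca-1neg, again without overlap, with a log2 fold change of -1.81 ± 0.56 (SE, adjusted p = 0.0854, same test). Its receptor dystroglycan (Dag1) had 169 to 243 CPM in Sca-1+ tdT+ and 231 to 312 CPM in Sca-1neg tdT+. It did not pass with edgeR and was called by DESeq2 (-0.45, adjusted p = 0.0459). Agrin (Agrn), a heparan sulfate proteoglycan that also binds dystroglycan, had 765, 427 and 676 CPM in Sca-1+ tdT+, against 924, 1054 and 1229 CPM in Sca-1neg tdT+. These groups did not overlap, and the log2 fold change was -0.78 ± 0.22 (SE, adjusted p = 0.0445, edgeR quasi-likelihood test).

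Among the vascular members that fell, whose values in each library are given above, the log2 fold changes of Sca-1+ tdT+ over Sca-1neg tdT+ were -1.25 ± 0.19 for Hspg2, -2.28 ± 0.36 for Col4a2, -2.34 ± 0.45 for Col4a1 and -1.71 ± 0.29 for Col18a1 (SE, adjusted p = 0.00222, 0.00291, 0.00958 and 0.00342, edgeR quasi-likelihood test). They were -0.92 ± 0.24 for Lama4 and -1.66 ± 0.44 for Pxdn (SE, adjusted p = 0.0316 and 0.0378, same test). The member that rose, Col4a6, had 172, 76.0 and 150.2 CPM in Sca-1+ tdT+, against 55.1, 67.6 and 71.4 CPM in Sca-1neg tdT+, without overlap. Its log2 fold change was 1.04 ± 0.27 (SE, adjusted p = 0.0317, edgeR quasi-likelihood test). The partner gene Col4a5 passed no test, and the ratio of the Col4a6 to the Col4a5 level per kilobase was 1.50, 1.01 and 1.93 in Sca-1+ tdT+, against 0.767, 1.04 and 0.795 in Sca-1neg tdT+. Of 6 bulge markers all 6 fell in this comparison, with summed levels of 267 to 388 CPM in Sca-1+ tdT+ and 1832 to 3277 CPM in Sca-1neg tdT+. T cell markers rose in 9 of 9 cases, with sums of 241 to 756 CPM in Sca-1+ tdT+ and 30.2 to 46.7 CPM in Sca-1neg tdT+. Fibroblast markers summed to 366 to 1446 CPM in Sca-1+ tdT+ and 3807 to 8453 CPM in Sca-1neg tdT+, and pericyte and smooth muscle markers to 146 to 195 CPM in Sca-1+ tdT+ and 317 to 449 CPM in Sca-1neg tdT+. Of the 10 fibroblast genes, however, 6 had a negative and 4 a positive log2 fold change, with a median of -0.15, and 1 fell. Of the 10 pericyte and smooth muscle genes 8 were negative and 2 positive, with a median of -1.82, and 1 fell and 1 rose. None of the bulge, T cell, fibroblast and pericyte sums overlapped between the groups. Endothelial sums did, at 103 to 224 CPM in Sca-1+ tdT+ and 16.6 to 1649 CPM in Sca-1neg tdT+. The value of 1649 CPM belongs to replicate 2, whose tdT stood at 2.05 CPM and which held liver transcripts. Of the 20 endothelial genes, 19 had a negative and 1 a positive log2 fold change, with a median of -1.77, and 0 passed. The part of each cell type in the changes of the members was not tested.

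When the library labelled Sca-1neg tdT+ replicate 2 was left out, 7 members fell between the fractions of tdT+ cells and none rose. Col4a6 (1.07), Agrn (-0.79), Lama4 (-0.93) and Pxdn (-1.78) then missed the threshold with nearly the same log2 fold changes, at adjusted p of 0.0701, 0.0868, 0.0630 and 0.0551 by the edgeR quasi-likelihood test. Col4a6 (0.81 to 1.11) lost its call without any one of the 3 Sca-1neg tdT+ libraries or of Sca-1+ tdT+ replicates 1 and 3. The same held for Pxdn (-1.78 to -1.33), also without Sca-1neg tdT- replicate 1, and for Lama4 (-0.93 to -0.70), also without either Sca-1+ tdT- library. Agrn (-0.88 to -0.60) lost its call in 9 of 11 cases and kept it without Sca-1neg tdT- replicate 2 or Sca-1+ tdT+ replicate 1. The other 7 members kept theirs without each library in turn. When the 3 libraries holding liver transcripts were left out, with 1 Sca-1neg tdT+ library remaining, those 7 fell, Lama2 and Nid1 rose, and Col4a6, Agrn, Lama4 and Pxdn did not pass.

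**Figure D4:**
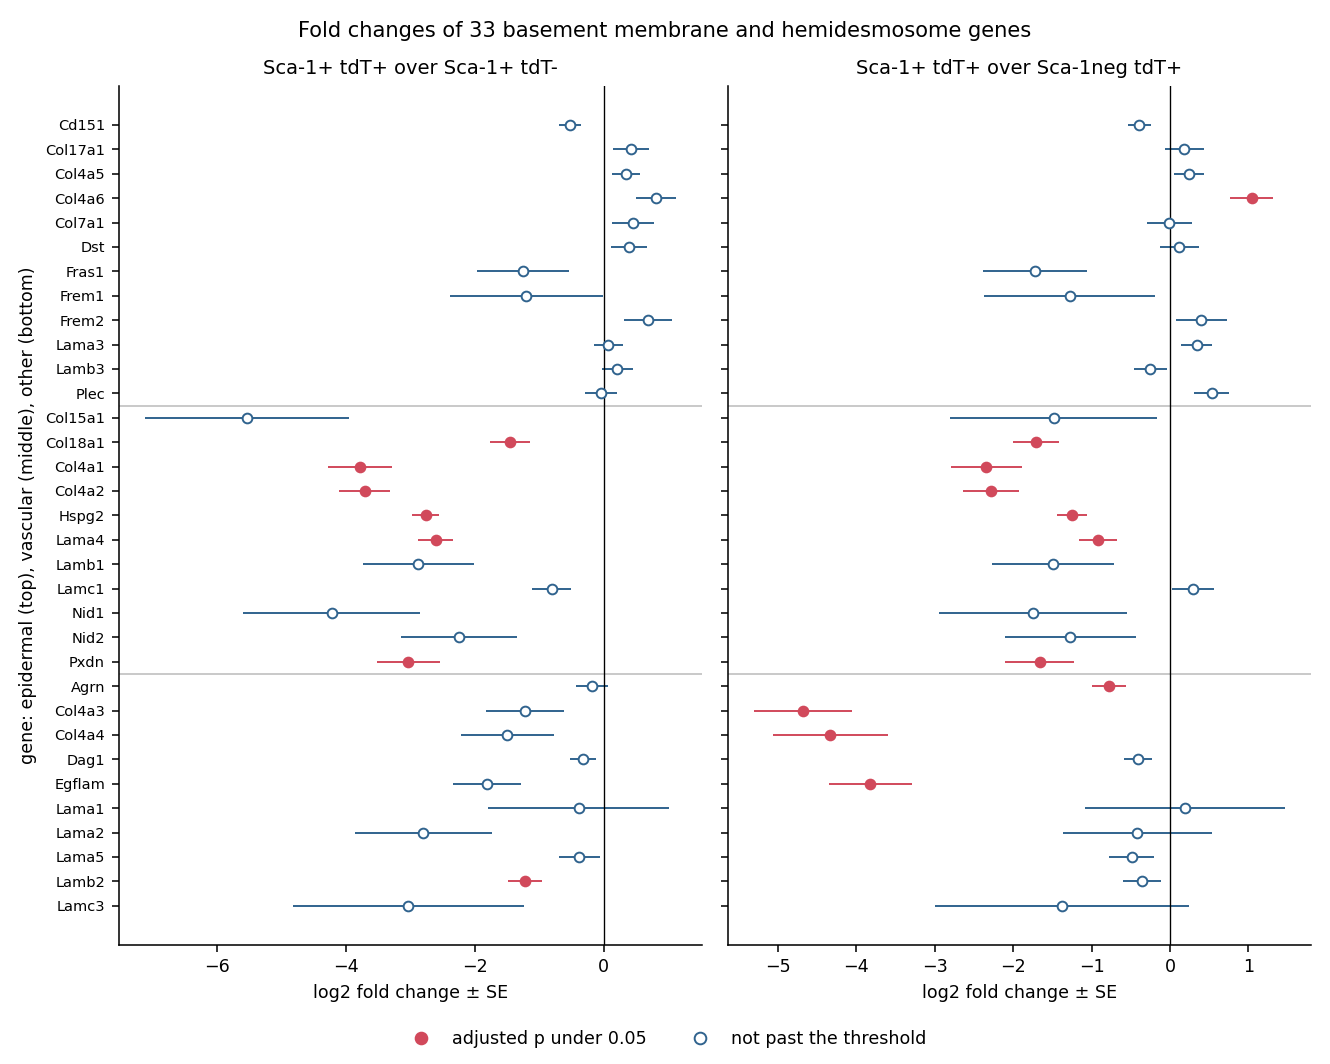
Log2 fold changes ± SE of the 33 members for Sca-1+ tdT+ over Sca-1+ tdT- (left) and Sca-1+ tdT+ over Sca-1neg tdT+ (right), by class. Red points have an adjusted p below 0.05: 7 on the left, all to the left of 0, and 11 on the right, of which Col4a6 alone is above 0.

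In tdT- cells few members passed between the fractions. Relative to Sca-1neg tdT-, 2 of 33 members rose in Sca-1+ tdT-, Lama4 and Hspg2, and 1 fell, Agrn, which is 6.06% and 3.03% of members. Over all genes tested 3.68% rose and 2.06% fell, shares close to those of the members. The log2 fold changes were 1.30 ± 0.26 for Lama4, 0.91 ± 0.21 for Hspg2 and -1.13 ± 0.26 for Agrn (SE, adjusted p = 0.0180, 0.0308 and 0.0301, edgeR quasi-likelihood test). Agrn had 622 and 800.0 CPM in Sca-1+ tdT-, against 1748, 1449.7 and 1458 CPM in Sca-1neg tdT-, and the groups of all 3 genes did not overlap. The median log2 fold change of the vascular class was 0.89, with 10 of 11 members positive, against -0.31 for the epidermal class and -0.13 over all genes. Col18a1 was the vascular member below 0, at 409.7 and 815 CPM in Sca-1+ tdT- and 879 to 1276 CPM in Sca-1neg tdT-, a log2 fold change of -0.80 ± 0.32 that did not pass (SE, adjusted p = 0.183, edgeR quasi-likelihood test). Higher levels without overlap were seen in 9 members and lower ones in 11, beside 19.9% and 26.4% of all genes. Summed endothelial markers were at 6962 and 7556 CPM in Sca-1+ tdT-, against 68.6 to 275 CPM in Sca-1neg tdT-, with all 20 genes positive and 1 called. Of T cell markers 7 of 9 rose, at 54.5 and 58.9 CPM in Sca-1+ tdT- and 5.93 to 8.54 CPM in Sca-1neg tdT-, and of bulge markers 3 of 6 fell, at 905 and 1548 CPM in Sca-1+ tdT- and 2472 to 3486 CPM in Sca-1neg tdT-. Fibroblast sums were 1694 and 2728 CPM in Sca-1+ tdT-, against 3939 to 7470.3 CPM in Sca-1neg tdT-. These sums did not follow most genes of the list. Of the 10 fibroblast genes 9 had a positive log2 fold change and 1 a negative one, with a median of 0.99 and 0 called. The part of each cell type was not tested. The calls on members depended on single libraries: 0 members were called when either Sca-1neg tdT- replicate 3 or Sca-1+ tdT- replicate 1 was left out, 1 after dropping Sca-1neg tdT- replicate 1 or Sca-1+ tdT- replicate 2, and 7 after dropping Sca-1neg tdT+ replicate 3. In the cases without a call, which include each of these 4 libraries for Hspg2 and Agrn and all of them but Sca-1neg tdT- replicate 1 for Lama4, the log2 fold changes were 1.26 to 1.36 for Lama4, 0.75 to 1.07 for Hspg2 and -1.27 to -0.97 for Agrn. Without the 3 libraries holding liver transcripts, 1 Sca-1neg tdT+ library remained in the fit. The class medians were then 1.06 for vascular, -0.29 for epidermal and -0.26 for other members, beside -0.01 over all genes.

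In the Sca-1neg fraction, 0 of 33 members passed the edgeR quasi-likelihood test between tdT+ and tdT-, where 0.0640% of all genes did. DESeq2 also called 0. An unadjusted p below 0.05 was found for 3 members with edgeR and 4 with DESeq2, beside 1691 and 1893 of all 20307 genes. The class medians of the log2 fold change were -0.25 for epidermal, -0.54 for vascular and 0.07 for other members, beside -0.03 over all genes. The median of the other members turned negative in 4 alternatives: -0.04 with scaling by library size alone, -0.11 with replicate number as a block, -0.13 without the 3 libraries holding liver transcripts, and -0.06 without Sca-1neg tdT- replicate 3. Hspg2 and Lama4 were lower in all 3 libraries labelled tdT+ than in any tdT- library, with log2 fold changes of -0.61 ± 0.19 and -0.39 ± 0.24 that did not pass (SE, adjusted p = 0.405 and 0.716, edgeR quasi-likelihood test). Among these 3 is the library labelled Sca-1neg tdT+ replicate 2, with tdT at 2.05 CPM, and 0 members passed without it. Without the 3 libraries holding liver transcripts Nid1 passed, with a log2 fold change of -4.44 that rests on 1 tdT+ library (adjusted p = 0.0296, edgeR quasi-likelihood test). In all, 2 members (Col4a3 and Egflam) lay higher and 5 (Hspg2, Lama4, Lamc1, Agrn and Col4a2) lower without overlap, beside 5.07% and 10.9% of all genes.

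The tdT effect differed between the fractions for 3 members, Hspg2, Lama4 and Col4a2, by a direct test of the difference. This is 9.09% of members with a more negative effect in Sca-1+, beside 0.468% of all genes. The effect in Sca-1+ minus that in Sca-1neg was -2.16 ± 0.28 for Hspg2, -2.22 ± 0.36 for Lama4 and -2.96 ± 0.51 for Col4a2 on the log2 scale (SE, adjusted p = 0.00795, 0.0241 and 0.0403, edgeR quasi-likelihood test). For Col4a1 it was -3.23 ± 0.64 and did not pass (SE, adjusted p = 0.0686, same test). All 11 vascular members had a negative difference, with a median of -2.22, while 8 of 12 epidermal members had a positive one, with a median of 0.41, beside 0.05 over all genes. When the library labelled Sca-1neg tdT+ replicate 2 was left out, only Hspg2 passed (-2.06, adjusted p = 0.0186, edgeR quasi-likelihood test). Hspg2 (-1.99) lost its call without Sca-1+ tdT- replicate 2. Lama4 (-2.29 to -2.15) lost its call in 7 of 11 cases and kept it without Sca-1neg tdT+ replicate 1 or 3 or Sca-1+ tdT+ replicate 1 or 2. Col4a2 (-2.99 to -2.42) also lost its call in 7 and kept it without Sca-1neg tdT+ replicate 3, Sca-1neg tdT- replicate 2, Sca-1+ tdT+ replicate 3 or Sca-1+ tdT- replicate 1. Without the 3 libraries holding liver transcripts, Hspg2 (-2.14) and Col4a2 (-3.19) passed and Lama4 (-2.26) did not. At 29 and 32 weeks the differences were -1.87 and -2.38 for Hspg2, -2.67 and -2.06 for Lama4, and -2.98 and -3.09 for Col4a2, and none passed at 32 weeks.

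By age, the 7 falls of Sca-1+ tdT+ against Sca-1+ tdT- had the same direction at 29 and at 32 weeks. The 29-week log2 ratios, from 1 library a group, ran from -3.52 for Col4a1 to -0.76 for Lamb2. The 32-week fit, whose single Sca-1+ tdT- library borrows its spread from the other groups, gave -4.08 for Col4a1 to -1.54 for Lamb2, and of the 7 only Hspg2 passed in it (-2.94, adjusted p = 0.0314, edgeR quasi-likelihood test). Between the fractions of tdT+ cells, Col4a3 was at -3.49 and -5.36 and Egflam at -4.66 and -3.50, at 29 and 32 weeks, and these were the members that passed at 32 weeks (adjusted p = 0.0269 and 0.0164, edgeR quasi-likelihood test). For the other 9 called there, both ages gave the direction of the pooled value, with Col4a6 at 1.64 and 0.70 and Agrn at -0.27 and -1.05. Lama4, Hspg2 and Agrn in tdT- cells kept their direction at both ages too, at 1.18 and 1.36, 0.59 and 1.14, and -1.49 and -0.87, without a call at 32 weeks.

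Among the 7 falls of Sca-1+ tdT+ against Sca-1+ tdT-, the calls of Hspg2, Lama4, Col4a1 and Col4a2 held without each library in turn. Col18a1 and Lamb2 each lost theirs without 5 single libraries, with log2 fold changes of -1.53 to -0.92 and -1.35 to -1.12. For Col18a1 these were all 3 Sca-1+ tdT+ libraries, Sca-1+ tdT- replicate 2 and Sca-1neg tdT- replicate 1. For Lamb2 they were Sca-1+ tdT+ replicate 3, both Sca-1+ tdT- libraries and Sca-1neg tdT- replicates 1 and 3. Pxdn lost its call without Sca-1+ tdT+ replicate 1 or Sca-1+ tdT- replicate 2 (-2.93 and -2.60). The count of members called was 4 without Sca-1+ tdT- replicate 2 and 10 after dropping Sca-1neg tdT+ replicate 3.

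Other genes of the pathway were read from 3 lists. Of 16 further basement membrane components, 15 were tested and 6 fell in Sca-1+ tdT+ against Sca-1+ tdT-, led by the collagen-binding protein Sparc (-2.55 ± 0.17), Col6a1 (-2.28 ± 0.30) and Col6a2 (-3.04 ± 0.50), with adjusted p of 8.09e-05, 0.00259 and 0.0126 by the edgeR quasi-likelihood test. Against Sca-1neg tdT+, 8 of these 15 fell in Sca-1+ tdT+ and Smoc2 rose. In tdT- cells, Npnt, an integrin ligand of the bulge basement membrane, fell in Sca-1+ against Sca-1neg (-2.08 ± 0.31, adjusted p = 0.00582, edgeR quasi-likelihood test), Col6a1 fell as well, and Tinagl1 rose. Of 10 receptors and linkers, 0 passed between tdT+ and tdT- in Sca-1+, while the laminin-binding integrin chains Itga6 (1.23 ± 0.18) and Itga3 (0.86 ± 0.20) rose and the laminin receptor Bcam (-0.96 ± 0.21) fell in Sca-1+ tdT+ against Sca-1neg tdT+. Itga6 encodes a protein used in the sort. Of 15 genes of collagen assembly, crosslinking and turnover, only the lysyl hydroxylase Plod3 fell between tdT+ and tdT- in Sca-1+ (-1.07 ± 0.18, adjusted p = 0.00871, edgeR quasi-likelihood test). In Sca-1+ tdT+ against Sca-1neg tdT+, Plod3 and the collagen chaperone Serpinh1 were among 3 that fell and the prolyl hydroxylase P4ha2 rose.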

How the data were processed

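The deposited files hold raw counts per gene, which the authors made with STAR and featureCounts on mm10, per the submitters' processing notes, which also list bcl2fastq 2.20.0.422, FastQC and DESeq2 1.18.1. For the annotation release, strand setting and handling of multimapping reads, nothing is given in the sources used here. The library kit was TruSeq RNA v2, per the labels. Symbols, positions and exon lengths came from GENCODE M21, which named 55450 of 55536 genes, and promoter sequences from RefSeq, with an entry for 24 of the 33 members.

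Counts were fitted in R 4.3.3 with edgeR 4.0.16 (filterByExpr, TMM, robust quasi-likelihood fit with 4 group means, 7 residual degrees of freedom) and Benjamini-Hochberg adjustment over 20307 genes. Standard errors were computed as |log2 fold change|/√F. The tdT entry stayed out of the tests. The labels name no separate animals behind replicates beyond 2 pooled mice per library, so p values measure the spread between libraries. No library was a copy of another (smallest chi-square per degree of freedom 30.3 over 55 pairs). Members and lists were chosen with earlier results of these data known. All members were to be named where called, and otherwise the most abundant of each class; other genes were named as up to 3 called genes of a list with the lowest p. Further members, ratios and libraries were described after their values were seen. Alternatives were DESeq2 1.42.0, other scalings and filters, a replicate block, the 32-week libraries alone, the omission of the 3 libraries holding liver transcripts, and leaving out each library. The test was checked on simulated data.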

Additional observations from a re-analysis of the deposited data

Results flagged for a closer look

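A difference between groups was seen for 3 members, in that the tdT effect in Sca-1+ cells differed from that in Sca-1neg cells by the test of the difference itself. The effect in Sca-1+ minus that in Sca-1neg was -2.16 for Hspg2, -2.22 for Lama4 and -2.96 for Col4a2 on the log2 scale. Within Sca-1+, tdT+ over tdT- was -2.76 for Hspg2, -2.61 for Lama4 and -3.71 for Col4a2, and all 3 tdT+ libraries lay below both tdT- libraries for each. Endothelial markers summed to 103 to 224 CPM in Sca-1+ tdT+ and to 6962 and 7556 CPM in Sca-1+ tdT-, and their part in these differences was not tested.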

How the results depend on the processing

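No called member changed direction under any of the 19 alternatives. Hspg2 in Sca-1+ tdT+ against Sca-1+ tdT- (-2.95 to -2.60), and Col4a3 and Egflam in Sca-1+ tdT+ against Sca-1neg tdT+, kept their calls under all 19. Comparison A is tdT+ against tdT- in Sca-1neg and B the same in Sca-1+. Comparison C is Sca-1+ against Sca-1neg among tdT+ libraries, D the same among tdT- libraries, and E the difference of the tdT effect. The edgeR quasi-likelihood test called 13, 556, 2572, 1166 and 98 genes and 0, 7, 11, 3 and 3 members in A to E.

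DESeq2 called 400, 1449, 4652, 2898 and 836 genes in A to E, and 12, 8 and 8 members in B, D and E. The 32-week libraries alone gave 0, 64, 345, 9 and 0 genes (747 and 1119 at an unadjusted p below 0.05 in A and E) and 1, 2, 0 and 0 members in B to E. With the 3 liver-containing libraries left out, and 1 Sca-1neg tdT+ library remaining, 38, 1286, 2073 and 220 genes were called in A, B, D and E. In that fit 1 member (Nid1, lower), 12 and 10 were called in A, B and D. Nid1 then rose in Sca-1+ tdT+ against Sca-1neg tdT+ (4.27), where with all libraries its uncalled value was -1.75. With no low-count filter 81 and 234 genes were called in A and E. E gave 172 genes with at least 10 CPM in 2 libraries and 156 with DESeq2 size factors. These factors moved the median log2 difference of all genes there from 0.05 to -0.07, and split A into 11 higher and 0 lower genes, against 11 and 2. Leaving out each library gave 0 to 14, 145 to 791, 1591 to 3040, 116 to 1665 and 26 to 347 genes, and 0 to 0, 4 to 10, 7 to 11, 0 to 7 and 0 to 5 members.

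Replicate 1 of every group came from 29-week mice and replicates 2 and 3 from 32-week mice, and the labels give the numbers no other shared source. The correlation of deviations between same-numbered libraries ran from -0.42 to 0.59. With the replicate block 15, 502, 2571, 1027 and 123 genes and 0, 7, 11, 3 and 3 members were called. Not all of these members were those called without the block. Col18a1 (-1.27, adjusted p = 0.0503) in B, Agrn in C (-0.79, 0.0530) and D (-1.07, 0.0551) and Col4a2 in E (-2.99, 0.0813) lost their calls in the edgeR quasi-likelihood test. Col15a1 in B (-5.20, 0.0489) and D (4.94, 0.0458), Fras1 in C (-2.12, 0.0377) and Col4a1 in E (-3.00, 0.0469) gained one. The numbers gave the best match for 3 of 6 libraries in A and 0 of 6 in C. The Sca-1+ tdT- group has 2 libraries, and depth sets the counting error of low members such as Nid2, with 16 to 241 counts per library. The cause of these changes was not tested.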
